A study of Mus musculus with 2 samples.

Results

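Transcripts of 10 genes of the ErbB and insulin-like growth factor (IGF) signaling families were examined by cell class in single cells from the optic nerves of mice with Nf1 optic pathway glioma (Nf1-OPG). The genes were the receptor tyrosine kinases Egfr, Erbb2, Erbb3 and Erbb4, the neuregulin ligands Nrg1, Nrg2 and Nrg3, the ligands Igf1 and Igf2, and the receptor Igf1r. They were picked by symbol, and all 10 were found among the 32285 genes of the count tables. The data were 2 single-cell libraries (10x Genomics, 5′ chemistry) of 1 genotype, Nf1-OPG, each made from the tissue of 10 pooled mice aged 12 weeks. The protocol names optic nerves, dissociated with debris and myelin removal, and meningeal dura, collected apart, and does not say which tissue a library holds beyond the label optic nerve. One library is named C-ON and its title adds the word control, and the other is named FMC_new. Neither label names a treatment, and both libraries carry the same genotype, so they were used as 2 samples of 1 group and not contrasted. According to the study's methods, Nf1-OPG mice carry a floxed and a mutant Nf1 allele together with GFAP-Cre. In such a design, Cre under the GFAP promoter removes the floxed allele in cells of the GFAP lineage. No library without this genotype was analysed here, which leaves the loss of Nf1 unchecked (Nf1 was at 124 CPM in C-ON and 93.5 CPM in FMC_new in the tumor-like cells).

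ErbB receptors work in pairs. ERBB2 binds no known ligand and ERBB3 has little kinase activity, whereas EGFR and ERBB4 both bind ligand and signal, and the neuregulins are ligands of ERBB3 and ERBB4. In myelinating glia and their precursors this family is known for its part in the contact between axons and glia, and Egfr is a well-known growth factor receptor of glial progenitors and of connective tissue. IGF1 and IGF2 both act through IGF1R, and their supply to cells is set by IGF-binding proteins and the proteases that cleave them.

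After filtering, 8834 cells of C-ON (85101211 UMIs, that is counted transcript molecules, before filtering) and 16818 cells of FMC_new (129113325 UMIs) were kept, with median depths of 6810.5 and 4676 UMIs per cell, and 188 cell barcodes were found among the kept cells of both libraries. Clusters were named from marker genes, which gave 16 classes of 22358 cells, and 12 classes had at least 20 cells in each library. Tumor-like cells (217 in C-ON and 1407 in FMC_new) carried 10 of 10 markers in at least 20% of cells, among them Pdgfra, Cspg4, Vcan and Neu4. These genes also mark oligodendrocyte precursors, which cannot be told apart from tumor cells here. FMC_new also held 1685 pituitary endocrine-like cells. Growth hormone (Gh) UMIs were found there in 99.8% of tumor-like and 99.9% of T cell-like cells, and C-ON had 0 Gh UMIs in both classes. Myelin RNA was found outside its cells as well. Over the 10 oligodendrocyte markers, the level in T cell-like cells had a median of 13.9% of that in oligodendrocyte-like cells in C-ON and 1.32% in FMC_new. The markers ranged from 11.9% to 48.8% in C-ON and from 0.643% to 43.4% in FMC_new, with Mbp the highest in both. T cell-like cells are therefore given as the background beside the values below.

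Levels are summed UMIs of a gene in a class per 1000000 UMIs of that class (CPM), with the exact 95% Poisson interval in parentheses, which covers counting error only. Since there were 2 libraries of 1 group, and the classes were built from the same cells, no test was made between classes. 2 classes are called apart where every library of one lies above every library of the other. Levels are compared between classes, never between genes.

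**Figure D1:**
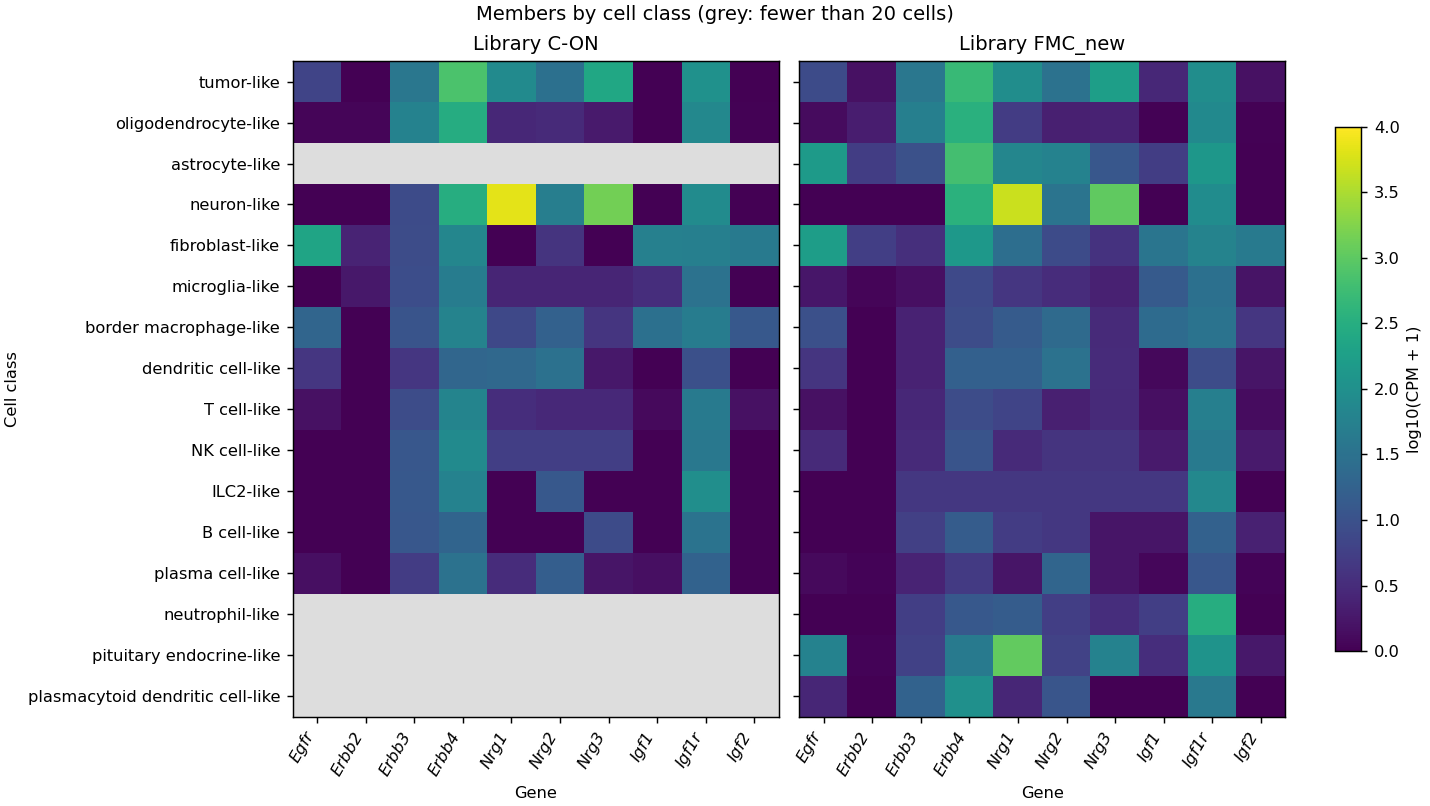
Level of each of the 10 genes (columns) in each cell class (rows) in C-ON (left) and FMC_new (right), colored by log10(CPM + 1); grey marks classes with fewer than 20 cells in that library. Erbb3, Erbb4, Nrg1, Nrg2, Nrg3 and Igf1r are the brighter columns in the tumor-like row of both libraries, and of these Erbb3 and Nrg2 are the dimmest. Egfr, Igf1 and Igf2 show in the fibroblast-like row, as do Erbb4 and Igf1r, and Nrg1 and Nrg3 are brightest in the neuron-like row.

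The sequences just upstream of Erbb4, Nrg3 and Egfr are shown because the first pair were both high in tumor-like cells and the third was nearly absent there. Each window holds the 250 bases before the gene's start, read 5′ to 3′ on the gene's strand from RefSeq (GRCm38.p6), and contains no exon of the gene. A promoter was matched for 7 of the 10 genes. Capitals mark GAGCGAGC in Erbb4 (chr1:69108060-69108309, minus strand), CAGCATCAG in Nrg3 (chr14:39473089-39473338, minus strand) and the GC box GGGCGG, read on the opposite strand, in Egfr (chr11:16751953-16752202, plus strand).
Erbb4: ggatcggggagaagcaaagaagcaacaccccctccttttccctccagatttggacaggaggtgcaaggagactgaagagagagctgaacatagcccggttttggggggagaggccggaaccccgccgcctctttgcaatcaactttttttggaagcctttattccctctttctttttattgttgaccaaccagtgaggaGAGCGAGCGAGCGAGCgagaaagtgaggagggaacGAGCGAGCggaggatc
Nrg3: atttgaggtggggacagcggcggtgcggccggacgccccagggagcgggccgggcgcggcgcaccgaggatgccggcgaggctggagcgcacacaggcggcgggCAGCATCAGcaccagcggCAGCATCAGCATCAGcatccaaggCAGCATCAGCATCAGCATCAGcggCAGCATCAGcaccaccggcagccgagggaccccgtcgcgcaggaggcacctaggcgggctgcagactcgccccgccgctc
Egfr: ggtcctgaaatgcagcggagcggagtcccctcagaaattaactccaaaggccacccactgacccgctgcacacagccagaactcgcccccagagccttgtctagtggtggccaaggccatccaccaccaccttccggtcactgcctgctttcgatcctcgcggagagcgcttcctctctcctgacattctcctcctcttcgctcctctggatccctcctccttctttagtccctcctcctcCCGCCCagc
The Erbb4 window had a GC content of 54.0%, against a median of 52.4% over 32851 promoter windows of this length, and the windows of Nrg3 (72.4%) and Egfr (60.8%) were richer in GC. Both strands were searched, and matches could overlap. GAGCGAGC matched 4 times in the Erbb4 window and was found in 1.66% of all windows, and CAGCATCAG matched 7 times in the Nrg3 window and was found in 0.423%. These repeats were picked after the sequences had been seen. The GC box was found in 32.7% of all windows, the SOX core ACAAAG in 16.5% and the E-box CAGCTG in 13.001%, and neither of the latter letters occurred in the windows of Erbb4, Nrg3 or Egfr.

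Erbb4 (chr1:68032186-69108059, minus strand, GRCm38), a receptor for neuregulins, was higher in tumor-like cells than in any other class with enough cells in both libraries. It reached 746 CPM (699 to 795) in C-ON and 501 CPM (485 to 516) in FMC_new, or 623 ± 174 (SD, n = 2). Neuron-like cells (308 and 359 CPM) and oligodendrocyte-like cells (301 and 344 CPM) came next and overlapped each other, and both were apart from the tumor-like cells above and from fibroblast-like cells below (66.7 and 136 CPM). Below them, neighboring classes in the order overlapped. In T cell-like cells Erbb4 was at 63.8 CPM in C-ON and 7.43 CPM in FMC_new, which was 21.2% and 2.16% of the oligodendrocyte-like level, or somewhat above the median myelin marker in each library. After each cell had been thinned to 1000 UMIs, 43.2% of tumor-like cells in C-ON and 34.7% in FMC_new had an Erbb4 UMI, against 3.70% and 1.12% of T cell-like cells. At full depth the shares were 82.9% and 70.9% of tumor-like cells (median depths of 5313 and 5409 UMIs) and 11.3% and 2.48% of T cell-like cells (3255 and 3128 UMIs). Astrocyte-like cells were also high, at 746 CPM (552 to 987) in only 19 cells of C-ON and 626 CPM (556 to 704) in 151 cells of FMC_new, above the tumor-like value in the latter. The 10 oligodendrocyte markers summed to 36083 and 9714 CPM in astrocyte-like cells, against 76369 and 68946 CPM in oligodendrocyte-like cells. The part of oligodendrocyte RNA in the astrocyte-like levels given here and below was not tested.

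Erbb4 was uneven within the oligodendrocyte-like class. In the cluster led by Gm16168, Tenm2, Gm816, Grm7 and Hecw2 it stood at 963 CPM in C-ON (660 cells) and 1003 CPM in FMC_new (185 cells). In the cluster led by Nkx2-9, Barx2, Acy3, Mgst3 and Dpysl5 it stood at 126 and 156 CPM, and in the other 2 oligodendrocyte-like clusters between 241 and 354 CPM. Igf1r ran the same way, at 157 and 168 CPM in the first of these clusters and 57.5 to 73.9 CPM in the others, and Erbb3 was at 79.3 and 85.6 CPM there against 33.3 to 67.6 CPM. The clusters were built from these cells, so the differences are a description. Erbb4 spans 1075.874 kb, of which 1.15% is exonic. Genes of over 500 kb (230, members left out) took 6.92% and 6.41% of UMIs in the Erbb4-high cluster and 2.05% to 2.77% in the other 3. Their share was 6.32% and 4.74% in the tumor-like class, 2.88% and 2.86% in the oligodendrocyte-like class as a whole, and 1.14% and 0.843% in T cell-like cells. Whether reads in introns were counted is not given in the sources used here, and the part of the long-gene share in the Erbb4 levels was not tested.

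**Figure D2:**
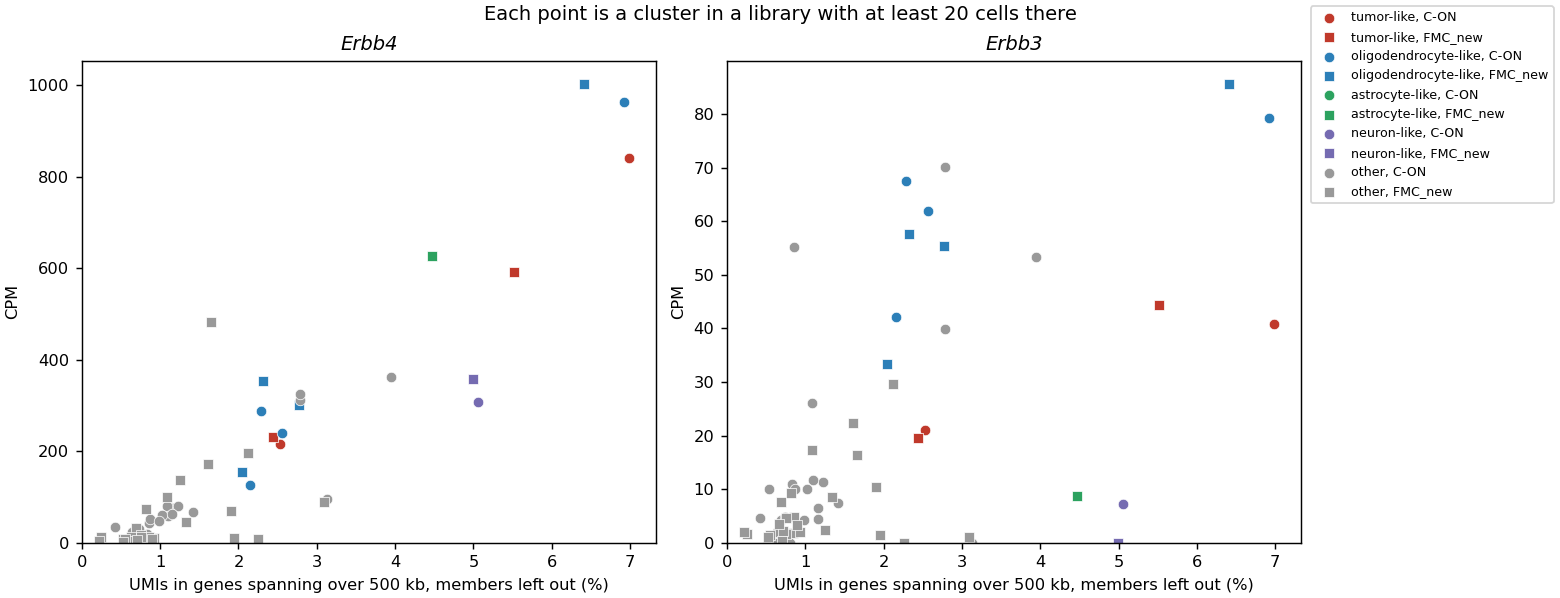
Level of Erbb4 (left) and Erbb3 (right) in CPM against the percentage of UMIs in genes spanning over 500 kb, members left out; each point is a cluster in 1 library with at least 20 cells there, circles for C-ON and squares for FMC_new, colored by class. The 2 oligodendrocyte-like points of the Erbb4-high cluster sit at 6.92% and 6.41% on the x axis and at 963 and 1003 CPM of Erbb4, and tumor-like points at a like long-gene share have about the Erbb3 level of the other oligodendrocyte-like clusters.

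Erbb3 (chr10:128567523-128589652, minus strand), the neuregulin receptor with little kinase activity, was the only ErbB receptor that was highest in oligodendrocyte-like cells. It was at 57.8 CPM (55.6 to 60.02) in C-ON and 53.1 CPM (49.6 to 56.6) in FMC_new there, and at 37.9 CPM (27.9 to 50.2) and 38.1 CPM (33.9 to 42.7) in tumor-like cells. The 2 classes were apart, and both stood above the other 10 classes compared. T cell-like cells were at 7.41 and 1.77 CPM, 12.8% and 3.33% of the oligodendrocyte-like level, close to the median of the oligodendrocyte markers in C-ON. Unlike Erbb4, Erbb3 is a short gene of 22.13 kb. After thinning, 5.16% and 3.90% of tumor-like cells and 6.22% and 5.72% of oligodendrocyte-like cells had an Erbb3 UMI.

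Egfr (chr11:16752203-16918158, plus strand), the receptor of the EGF ligands, was highest in fibroblast-like cells among the classes compared. Fibroblast-like cells had 212 CPM (179 to 250) in C-ON and 169 CPM (154 to 184) in FMC_new, or 190 ± 30.7 (SD, n = 2), and were apart from border macrophage-like cells at 19.1 CPM (13.4 to 26.4) and 8.39 CPM (6.02 to 11.4). Tumor-like cells followed at 5.53 CPM (2.22 to 11.4) and 7.34 CPM (5.58 to 9.49), apart from both neighbors, although the counting intervals of tumor-like and border macrophage-like cells overlapped in FMC_new. In T cell-like cells Egfr was at 0.530 and 0.531 CPM, and in oligodendrocyte-like cells at 0.131 and 0.295 CPM. Astrocyte-like cells also carried Egfr, with 107 CPM (42.9 to 220) from 7 UMIs in C-ON and 149 CPM (116 to 189) in FMC_new. These intervals overlapped those of the fibroblast-like cells in each library. Erbb2 (chr11:98412470-98437716, plus strand), the partner receptor without a ligand, was at 1.48 CPM in C-ON, a single UMI, and 4.55 CPM in FMC_new in fibroblast-like cells and at most 1.06 CPM in the other 11 classes compared. Tumor-like cells of C-ON had 0 Erbb2 UMIs, which allows up to 2.37 CPM, and those of FMC_new had 0.507 CPM. T cell-like cells had 0 UMIs in both libraries, which allows up to 0.794 and 0.265 CPM. Erbb2 shares exon bases with Mien1 on the opposite strand, and strand use is not given, so its low values are also uncertain in origin.

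Nrg1 (chr8:31814551-32884029, minus strand) encodes the best studied neuregulin, a signal from axons to glia. It was highest in neuron-like cells, at 6870 CPM (6564 to 7187) in 35 cells of C-ON and 4781 CPM (4467 to 5110) in 21 cells of FMC_new. That class rested on 4 of 8 neuron markers and was led by Avp, Syt10, Stmn2, Nrsn2 and Prokr2. Of the 12 classes with at least 20 cells in each library, tumor-like cells came second, at 81.3 CPM (66.4 to 98.6) and 91.7 CPM (85.1 to 98.6), or 86.5 ± 7.32 (SD, n = 2), and were apart from all classes below. Dendritic cell-like cells had 21.7 and 15.9 CPM and overlapped fibroblast-like cells, which had 0 Nrg1 UMIs in C-ON (up to 4.45 CPM) and 26.6 CPM in FMC_new. Oligodendrocyte-like cells had 1.76 and 4.19 CPM, no more than T cell-like cells in FMC_new (2.38 and 5.66 CPM). In FMC_new, Nrg1 was at 68.1 CPM (46.3 to 96.7) in astrocyte-like cells and, above the tumor-like level, at 1097 CPM in pituitary endocrine-like cells.

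Nrg3 (chr14:38368952-39473088, minus strand), a neuregulin that binds ERBB4, was in tumor-like and neuron-like cells and low in the other 10 of the 12 classes with at least 20 cells in each library. Tumor-like cells had 244 CPM (218 to 273) in C-ON and 173 CPM (164 to 183) in FMC_new, and neuron-like cells had 1415 and 1043 CPM. Those 10 classes were at or below 7.32 CPM in both libraries. Outside the 12, astrocyte-like cells had 15.2 CPM (1 UMI) and 11.0 CPM (5 UMIs), and pituitary endocrine-like cells had 57.7 CPM in FMC_new. In oligodendrocyte-like cells Nrg3 was at 0.980 and 1.41 CPM, below T cell-like cells at 1.85 and 1.95 CPM. After thinning, 16.0% and 15.7% of tumor-like cells had an Nrg3 UMI, against 0.422% and 0.256% of T cell-like cells. Nrg3 (1104.137 kb) and Nrg1 (1069.479 kb) are, like Erbb4, long genes.

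Nrg2 (chr18:36017652-36197380, minus strand), a neuregulin related to Nrg1, was found in several immune classes as well. Neuron-like cells had 50.8 and 33.1 CPM, the former from 14 UMIs and the latter from 6. Dendritic cell-like cells (30.1 and 31.3 CPM) and tumor-like cells (29.2 and 30.6 CPM) overlapped, and border macrophage-like cells (16.4 and 23.5 CPM) overlapped plasma cell-like cells (14.9 and 19.1 CPM). Astrocyte-like cells had 76.2 CPM (5 UMIs) and 59.4 CPM (27 UMIs). Oligodendrocyte-like cells had 1.96 and 1.24 CPM, and T cell-like cells had 1.85 and 1.24 CPM. Thus all 3 neuregulins were found in tumor-like cells at levels above the T cell-like background and were at or near that background in oligodendrocyte-like cells.

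**Figure D3:**
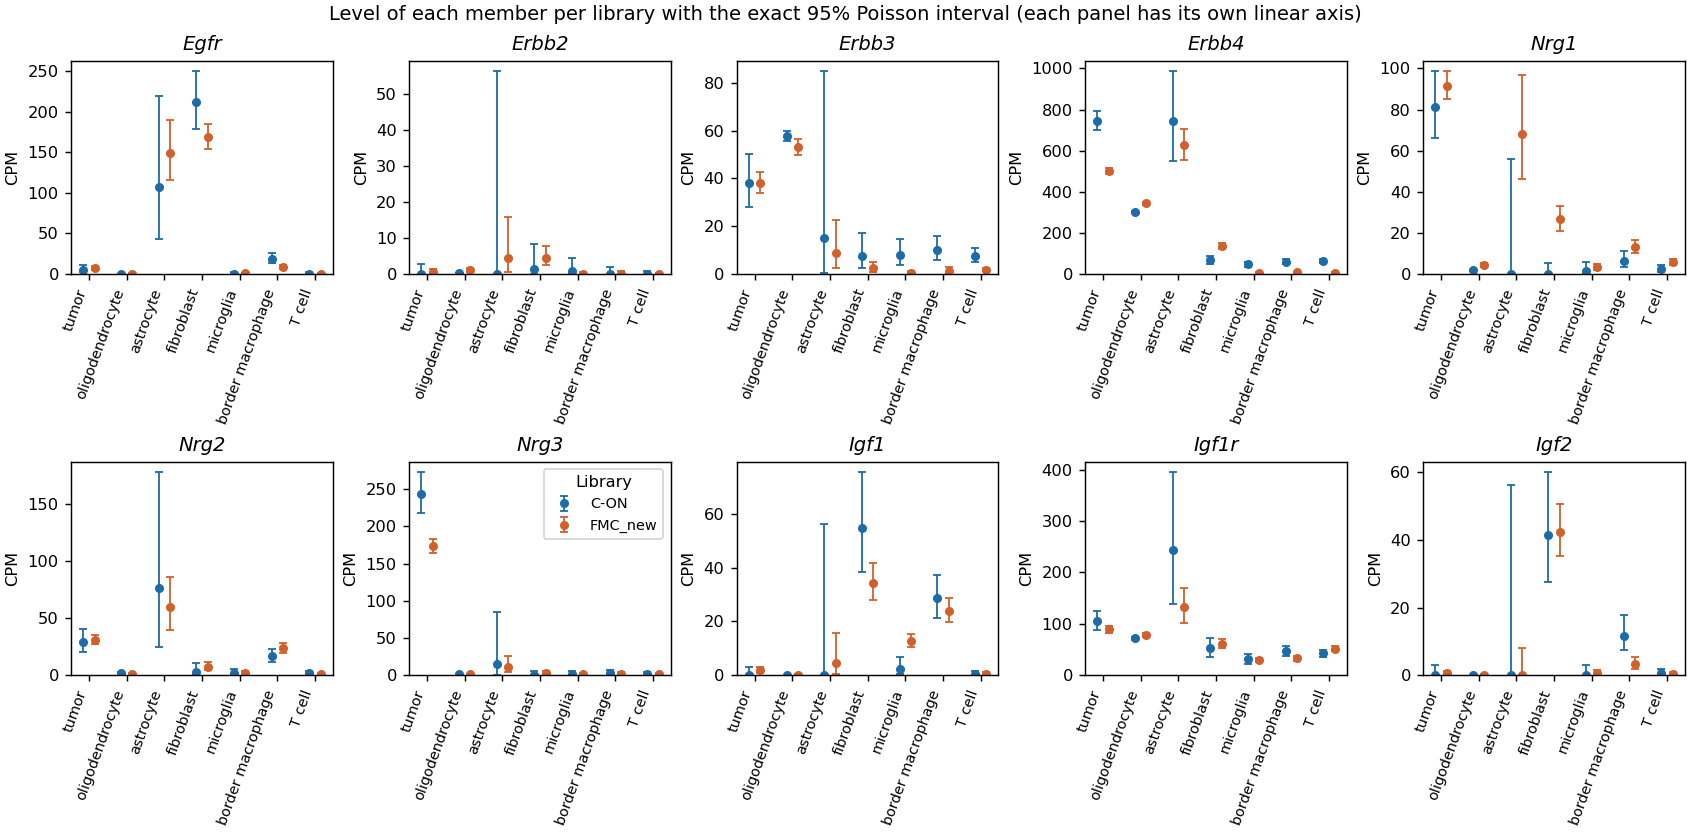
Level of each of the 10 genes in CPM in 7 cell classes, 1 panel per gene with its own linear axis; points are the libraries (blue, C-ON; orange, FMC_new) and bars the exact 95% Poisson intervals. The neuregulins separate tumor-like from oligodendrocyte-like cells, and Erbb4 is higher in tumor-like cells in both libraries, though not by 2-fold in FMC_new. Igf1 and Igf2 stand out in fibroblast-like cells, and Egfr in fibroblast-like and astrocyte-like cells (neuron-like cells are not drawn). The wide bars of the astrocyte-like points of C-ON come from its 19 cells.

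Igf1 (chr10:87858265-87937042, plus strand) and Igf2 (chr7:142650766-142666816, minus strand), the ligands of IGF1R, were both highest in fibroblast-like cells. Igf1 was at 54.8 CPM (38.6 to 75.6) in C-ON and 34.3 CPM (27.8 to 41.8) in FMC_new. Border macrophage-like cells, the macrophages of meninges and vessels, were apart below at 28.6 CPM (21.5 to 37.3) and 23.9 CPM (19.8 to 28.7), although in each library the counting intervals were close or overlapped. Microglia-like cells had 2.37 CPM (3 UMIs) and 12.7 CPM. Tumor-like cells had 0 Igf1 UMIs in C-ON, which allows up to 2.37 CPM, and 1.77 CPM in FMC_new. Igf2 was at 41.5 CPM (27.6 to 59.98) and 42.3 CPM (35.1 to 50.6) in fibroblast-like cells, 11.6 and 3.27 CPM in border macrophage-like cells, and 0 and 0.507 CPM in tumor-like cells. With cells placed one by one from their own markers, the fibroblast-like mean of the libraries was 89.2 CPM for Igf2 (41.9 from the clusters) and 74.6 CPM for Igf1 (44.6 from the clusters), and over all alternatives Igf2 ran from 28.7 to 89.2 CPM. In T cell-like cells Igf1 was at 0.265 and 0.442 CPM and Igf2 at 0.530 and 0.354 CPM. Igf2 shares exon bases with its antisense gene Igf2os, and since strand use is not given, reads of the pair may not be separable. It also shares exon bases with Gm49394 on its own strand, a gene that is not in the count tables. Igf1 was thus in fibroblast-like and border macrophage-like cells and, in FMC_new, in microglia-like cells as well. Igf2 was mainly in fibroblast-like cells, with a lower level in border macrophage-like cells. Both ligands had few or no UMIs in tumor-like cells.

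Igf1r (chr7:67952827-68233668, plus strand), the receptor, was found in every class. Of the 12 classes, tumor-like cells had the highest mean, with 106 CPM (88.6 to 125) in C-ON and 88.9 CPM (82.4 to 95.7) in FMC_new, followed by neuron-like cells at 83.5 and 88.3 CPM, a difference within counting error. ILC2-like cells (94.3 and 73.1 CPM) overlapped tumor-like, neuron-like and oligodendrocyte-like cells (71.7 and 78.0 CPM). Fibroblast-like cells had 51.9 and 60.9 CPM and microglia-like cells 30.8 and 29.2 CPM, and dendritic cell-like cells were lowest at 8.36 and 7.36 CPM. The T cell-like level of 42.1 and 51.4 CPM was 58.7% and 65.9% of the oligodendrocyte-like level. The myelin markers in these cells had a median of 13.9% and 1.32%, and the highest of them, Mbp, was at 48.8% and 43.4%. Neutrophil-like cells, of which FMC_new had 131 and C-ON had 3, reached 313 CPM (263 to 370) in FMC_new.

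Tumor-like cells were set against oligodendrocyte-like cells by a fixed rule, a difference of at least 2-fold in the same direction in each library among genes with at least 10 CPM in 1 of the classes. Of 10809 genes, 25.3% were higher and 8.54% were lower in tumor-like cells. Of the members, 6 were tested, and Nrg1, Nrg2 and Nrg3 were higher, 0 were lower, and Erbb3, Erbb4 and Igf1r were neither. Egfr, Erbb2, Igf1 and Igf2 were below the floor in both classes. The neuregulins passed the floor only through the tumor-like cells, so they could come out higher or uncalled but not lower, and their count is no result about the family. Nrg1 was 46.1-fold higher in C-ON and 21.9-fold higher in FMC_new, Nrg2 14.9-fold and 24.7-fold, and Nrg3 249-fold and 123-fold, against oligodendrocyte-like levels that were near background. Erbb4 was 2.48-fold higher in C-ON but 1.46-fold higher in FMC_new and so was not called, and Erbb3 was 1.52-fold and 1.39-fold lower. The median log2 difference, taken on the mean CPM + 1, was 2.26 over the 6 members and 0.32 over all genes tested. The floor let the neuregulins add only positive differences to the former, so this median is no result about the family either.

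The other genes of the pathway were compared between these classes in the same way. Hbegf, Lrig1, Irs1, Grb10, Igfbp2, Igfbp3, Igfbp4 and Igfbp5 passed the floor only through the tumor-like cells and Btc only through the oligodendrocyte-like cells. The floor thus fixed the direction in which these genes could be called, and it bears on the medians of their lists too. Of 8 other EGF-family ligands, 3 were tested (median log2 difference −0.13). Hbegf, a membrane-anchored EGFR and ERBB4 ligand, was higher in tumor-like cells (52.1 and 34.4 CPM against 2.83 and 2.12), Btc was lower (3.16 and 2.03 CPM against 13.2 and 12.4), and Tgfa was neither (112 and 98.3 CPM against 114 and 116). Of 10 ErbB sheddases and regulators, all 10 were tested, 0 were higher and 3 were lower (median −0.39). These were Bace1, a protease that cleaves NRG1, Errfi1, a feedback inhibitor of EGFR (106 and 85.0 CPM against 256 and 287), and Erbin, a binding partner of ERBB2 (67.1 and 71.3 CPM against 222 and 325). Of 8 insulin and IGF receptors, docking proteins and inhibitors, 6 were tested (median 0.03). Irs1 and Grb10 were higher in tumor-like cells, and Grb14, an adaptor that inhibits the insulin receptor, was lower (120.0 and 96.4 CPM against 711 and 795). Of 13 IGF-binding proteins and their proteases, 5 were tested (median 3.28). Igfbp3, the main carrier of IGF in serum, was at 79.0 and 65.6 CPM in tumor-like cells and 0.109 and 0.118 CPM in oligodendrocyte-like cells, Igfbp2 (7.11 and 43.8 CPM) and Igfbp4 (13.4 and 20.01 CPM) were higher too, and Igfbp5 and Htra1 were neither.

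**Figure D4:**
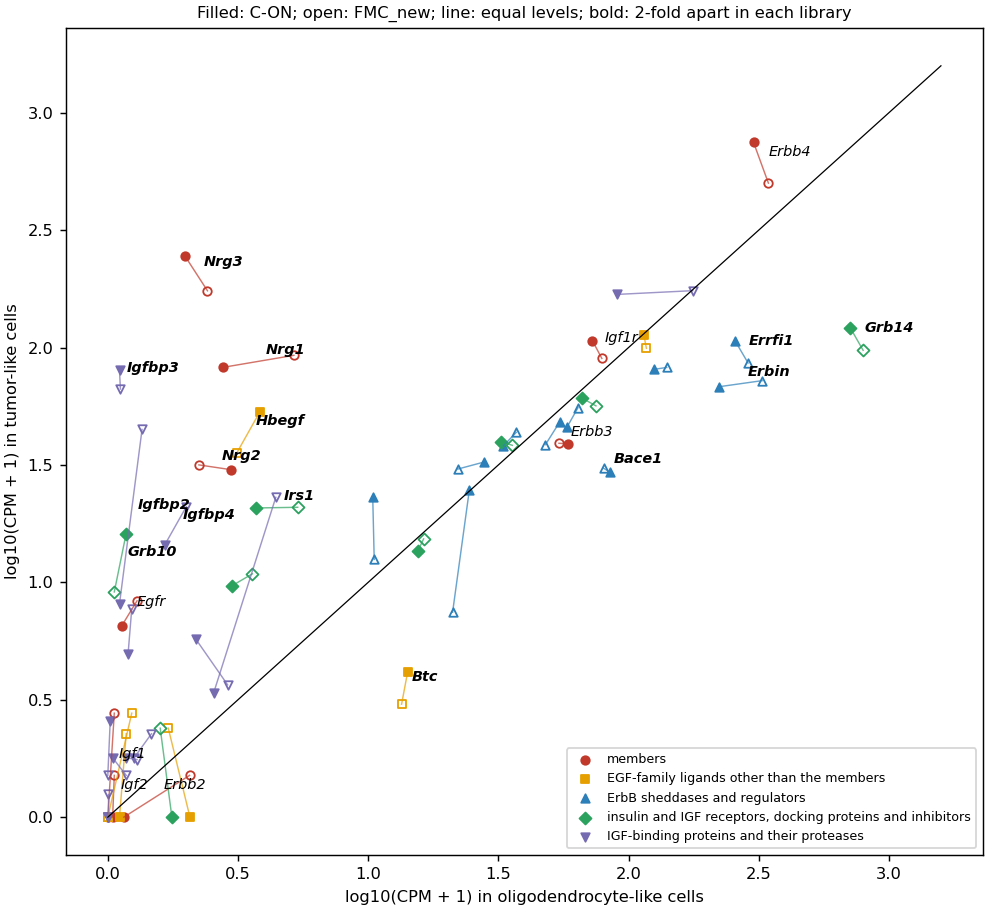
Level in tumor-like cells (y axis) against oligodendrocyte-like cells (x axis), both log10(CPM + 1), for the 10 members and the genes of the 4 pathway lists; filled symbols are C-ON and open symbols FMC_new, joined by a line per gene, and bold names mark genes at least 2-fold apart in each library. Nrg1, Nrg2, Nrg3, Hbegf and Igfbp3 lie far above the line of equal levels, Erbb3 and Igf1r lie near it, and Grb14, Errfi1 and Erbin lie below it.

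The fibroblast-like cells that held most Igf1, Igf2 and Egfr also carried the IGF-binding proteins. There, Igfbp5 was at 3147 and 2419 CPM, Igfbp6 at 1645 and 1233 CPM, Igfbp4 at 855 and 719.6 CPM, Igfbp7 at 338 and 229 CPM and Igfbp2 at 314 and 299.8 CPM in C-ON and FMC_new. Grb10, an adaptor that dampens IGF1R signaling, was at 151 and 109 CPM in the same cells. The 10 oligodendrocyte markers summed to 9391 and 4633 CPM in fibroblast-like cells and the 10 astrocyte markers to 794 and 1154 CPM. Their part in the fibroblast-like levels of Erbb4 and Egfr was not tested.

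Microglia-like and border macrophage-like cells, the resident macrophages of the nerve and of its borders, were compared by the same rule. Of 9002 genes, 4.24% were higher and 3.95% were lower in microglia-like cells. Of the members, 5 were tested, with 0 higher, Egfr and Nrg2 lower, and Erbb4, Igf1 and Igf1r neither. The other 5 were below the floor. Egfr, Nrg2 and Igf1 passed the floor only through the border macrophage-like cells, so 3 of the 5 could come out lower or uncalled but not higher, and neither the count nor the median is a result about the members. Egfr was at 0 UMIs (up to 2.37 CPM) and 0.718 CPM in microglia-like cells against 19.1 and 8.39 CPM, and Nrg2 was at 1.58 and 2.27 CPM against 16.4 and 23.5 CPM. Igf1 was 12.1-fold lower in C-ON, from 3 UMIs in microglia-like cells, and 1.89-fold lower in FMC_new. The median log2 difference was −1.68 over the members tested, which is the value of Igf1, and 0.05 over all genes. Among the lists, Tgfa (37.9 and 20.7 CPM against 13.8 and 4.91) and Hbegf (14.2 and 17.6 CPM against 5.82 and 6.14) were higher in microglia-like cells, as 2 of 2 ligands tested (median 1.41). Both passed the floor only through the microglia-like cells and could not have come out lower. Igfbp4 was lower, as 1 of 2 binding proteins tested (median −1.10), and 0 of 7 regulators (median −0.22) and 0 of 4 insulin and IGF genes (median −0.02) were called.

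Since Egfr, Igf1 and Igf2 were highest in fibroblast-like cells, border macrophage-like cells were split by whether they held a UMI of a fibroblast marker. Without one (304 cells in C-ON and 802 in FMC_new), Egfr was at 19.0 and 8.65 CPM and Igf1 at 27.5 and 23.3 CPM. With one (58 and 194 cells), Egfr was at 19.3 and 7.47 CPM and Igf1 at 33.1 and 26.1 CPM. Cells without one were most of the class, and a cell with free fibroblast RNA may hold no marker UMI. The split therefore cannot tell the source of Egfr and Igf1, which was not tested. Igf2 was at 7.86 CPM (4.06 to 13.7) and 2.88 CPM (1.44 to 5.16) without and at 27.6 CPM (13.2 to 50.8) and 4.67 CPM (1.52 to 10.9) with such a UMI. The 10 fibroblast markers summed to 39.7 and 53.4 CPM in border macrophage-like cells, with 8 of 10 detected in each library and Col3a1 at 0 in both, against 10924 and 8034 CPM in fibroblast-like cells. When cells were instead placed one by one from their own markers, the border macrophage-like Egfr level rose to 54.3 CPM (mean of the libraries, 13.7 from the clusters), Igf1 to 67.8 (26.3) and Igf2 to 21.8 (7.46).

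Microglia-like cells were split by a UMI of Cst7, Lpl or Spp1, genes of activated microglia, and Igf1 had too few UMIs to tell the cells with one from those without. In FMC_new it was at 16.8 CPM (5.47 to 39.3) in 297 cells with (5 UMIs) and 11.0 CPM (6.15 to 18.1) in 1365 cells without, after thinning. In C-ON only 2 Igf1 UMIs were left after thinning, both in the 25 cells with such a UMI. Between the 2 microglia-like clusters of FMC_new, Igf1 was at 8.87 CPM in the one led by Il1a, Gpr84, Tmem119, P2ry12 and Olfml3 and at 34.3 CPM in the one led by Cxcl13, Trem2, C1qa, C1qb and C1qc. Igf1r ran the other way, at 33.1 and 7.17 CPM. The latter cluster was shallow, with a median of 1711 UMIs per cell.

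The tumor-like class held 2 clusters. The larger (188 and 901 cells) was led by Pdgfra, C1ql1, Cspg5, Vcan and Neu4, and the smaller (29 and 506 cells) by Bcan, Gpr17, Igkv12-41, Neu4 and Sox4. Erbb4, Nrg2, Nrg3 and Igf1r were higher in the first cluster in both libraries, and Nrg1 and Erbb3 were clearly so in FMC_new alone. Egfr was at 5.57 and 5.26 CPM in C-ON and 7.29 and 7.49 CPM in FMC_new, and Erbb2, Igf1 and Igf2 had 0 UMIs in both clusters of C-ON. In FMC_new, Erbb4 was at 592 and 230 CPM in the first and second, Nrg3 at 217 and 45.5 CPM, Nrg1 at 108 and 45.0 CPM, and Igf1r at 102 and 51.0 CPM. In C-ON, Erbb4 was at 840 and 216 CPM, Nrg3 at 272 and 84.1 CPM, Nrg1 at 82.7 and 73.6 CPM, and Igf1r at 116 and 47.3 CPM. Genes of over 500 kb took 6.99% (C-ON) and 5.52% (FMC_new) of UMIs in the first cluster and 2.53% and 2.44% in the second. An immunoglobulin gene was among the leading genes of the second cluster, and its median depth in FMC_new was 2235.5 UMIs. Their part in these differences was not tested. Erbb3 was at 44.4 CPM in the first and 19.5 CPM in the second cluster in FMC_new. In C-ON it was at 40.9 and 21.03 CPM, a difference within counting error, with 29 cells in the second cluster.

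Tumor-like cells were also split by Gpr17, a receptor of precursors that are about to differentiate. After thinning, 39 cells of C-ON and 204 cells of FMC_new had a Gpr17 UMI. Nrg3 was higher in them in both libraries, at 487 CPM (293 to 761) against 172 CPM (116 to 246) in C-ON and 275 CPM (207 to 356) against 184 CPM (160 to 211) in FMC_new. The counting intervals were apart in C-ON and overlapped narrowly in FMC_new. These intervals treat the UMIs of a cell as independent, although some cells held several Nrg3 UMIs. By cells the difference was smaller. An Nrg3 UMI was found in 23.1% of cells with a Gpr17 UMI against 14.4% without in C-ON, and in 19.6% against 15.0% in FMC_new. Erbb4 was at 923 CPM (647 to 1278) against 649 CPM (535 to 781) in C-ON and 520 CPM (425 to 628) against 503 CPM (463 to 546) in FMC_new, within counting error. Intervals of Erbb3, Nrg1, Nrg2 and Igf1r overlapped in each library. Other genes differed with the split. Neu4 was at 718 against 362 CPM in C-ON and 569 against 366 CPM in FMC_new, and Mbp was lower, at 3179 against 4241 CPM and 3324 against 4089 CPM. The direction for Nrg3 was the opposite of that between the clusters, where the one led by Bcan and Gpr17 had the lower Nrg3 level, and the part of Neu4 and Mbp in it was not tested.

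**Figure D5:**
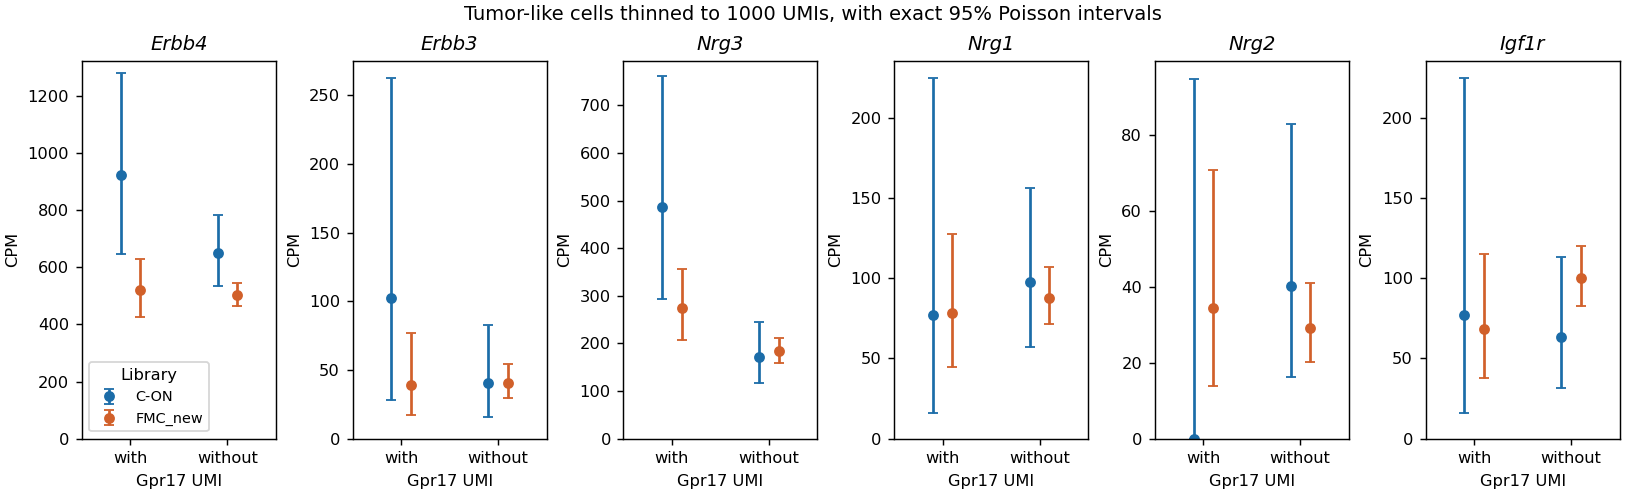
Level of 6 members in CPM in tumor-like cells with and without a Gpr17 UMI after thinning to 1000 UMIs per cell; points are libraries and bars exact 95% Poisson intervals, and each panel has its own linear axis from 0. Nrg3 lies higher in cells with a Gpr17 UMI in both libraries (487 against 172 CPM and 275 against 184 CPM), with bars that are apart in C-ON and overlap in FMC_new, and the bars of the other panels overlap in both libraries.

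Because ErbB receptors act in pairs, UMIs of 2 members in the same cell were counted. Of tumor-like cells, 1.88% in C-ON (4 of 213, exact 95% interval 0.514% to 4.74%) and 1.88% in FMC_new (25 of 1333, 1.22% to 2.76%) had both Erbb3 and Erbb4 UMIs after thinning, and 15.7% and 14.9% did at full depth. In oligodendrocyte-like cells the shares were 1.45% and 1.66% after thinning and 26.1% and 23.2% at full depth. Nrg3 and Erbb4 shared 8.92% (5.46% to 13.6%) and 7.65% (6.28% to 9.21%) of tumor-like cells after thinning and 39.6% and 35.2% at full depth. Erbb4 UMIs were in 55.9% and 48.8% of the thinned cells with Nrg3, against 43.2% and 34.7% of all tumor-like cells. Erbb4 UMIs were in 36.4% and 48.1% of the cells with Erbb3, 37.5% and 45.6% of those with Nrg1, and 42.9% and 46.6% of those with Igf1r. In FMC_new the thinned shares were thus above the class share for all 4 genes, and in C-ON for Nrg3 alone. The C-ON shares rested on few cells, of which 11 held Erbb3, 16 Nrg1 and 14 Igf1r UMIs. At full depth in C-ON they were 85.0% for Erbb3, 91.7% for Nrg1, 92.5% for Nrg3 and 85.7% for Igf1r. All of these were above the class share of 82.9%. Nrg1 and Erbb4 shared 2.82% and 3.08%, and Igf1r and Erbb4 shared 2.82% and 4.05%, after thinning. Co-detection in a cell depends on depth and says nothing of the proteins.

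For each member above 20 CPM in a class, the 3 genes with the most similar levels were taken over 28 class and library points and 11559 genes, by Pearson's r of log2(CPM + 1). The points share libraries, depth and free RNA, so r is a description. Erbb4 was most like Tafa5 (r = 0.97), Il1rapl1 (0.96) and Pcdh11x (0.96), and Nrg3 was most like Add2 (0.97), Gabrb2 (0.96) and Syngr3 (0.96). Erbb3 was most like Pllp (0.95), Gal3st1 (0.93) and Sox8 (0.93), and Nrg1 was most like Usp29 (0.96), Gng4 (0.95) and Syt4 (0.94). Egfr was nearest to Hspb1, Pcp4l1 and Pdgfd (0.89 each), Igf1 to Col14a1 (0.89), Adam33 (0.88) and Cracr2b (0.88), and Igf2 to Vtn (0.97), Mrap (0.95) and Calml4 (0.92). For Nrg2 the nearest was 5730522E02Rik (0.73), followed by Cpne2 (0.71) and Cgref1 (0.69), and for Igf1r it was Fam160a2 (0.80), followed by Ino80dos (0.80) and Insr (0.79). Erbb2 did not reach 20 CPM.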

How the data were processed

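The authors aligned the reads to mm10 (GRCm38) and counted UMIs per gene with Cell Ranger (7.2.0 per the labels; the study's methods name another version). The deposited values were raw UMI counts per gene and cell. Intron counting, strand use and removal of free RNA are not given in the sources used here. The labels also name Seurat 5.2.1.

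Cells with 500 to 5000 genes, 500 to 20000 UMIs and up to 5% mitochondrial UMIs were kept, as the study's design text states. Counts were log normalized as in the study's methods, integrated (CCA) and clustered in Seurat 5.3.0 (R 4.3.3) with 2000 variable features, 30 components and a resolution of 0.8. The 6 members among the variable features were left out of them. A cluster was named from at least 3 markers found in 20% of its cells at 2 times the mean of clusters. 8 clusters (3294 cells) stayed unnamed, 1 of them because macrophage genes led it although most markers were of oligodendrocytes. Another, of 1024 cells led by Cd209a, Cd209c, Tnip3, Mgl2 and Clec10a, best matched dendritic cells but stayed unnamed because 2 classes were close. The dendritic cell-like levels above leave these cells out. Doublets were not removed, and the study's methods describe no such step. Shares were computed from 25040 cells, each thinned to 1000 UMIs, without 612 cells of lower depth. Analyses used Python 3.11.15, scipy 1.17.1 and scanpy 1.11.5. The fold rule recovered 198 of 200 genes changed 4-fold and called 0 of 9744 unchanged genes when tested on simulated data drawn from the summed UMIs of all kept cells. That simulation held counting noise only, with no difference between libraries or cells and no free RNA. It therefore checks the working of the rule and not its error rate in these libraries or for changes near 2-fold.

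Genes named are the members, the 4 pathway lists, the 3 most similar genes of each member, Gh and Nf1 as checks, and the 5 leading genes of clusters singled out. The members and lists were chosen with earlier results of these data known. Of 4 fold comparisons planned, 2 could be made, since astrocyte-like cells of C-ON were under 20 and no endothelial-like class formed. Alternatives covered leaving out a library, clustering, naming of cells, doublets, filters, thinning, floors and folds.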

Additional observations from a re-analysis of the deposited data

How the results depend on the processing

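Several results moved with the processing, and where no construction is named the cause was not tested. The class with the highest level was the one given above for 10 of 10 members under 7 of 12 alternatives. It was the same for 4 of 10 under SCTransform, for 7 of 10 with cells placed one by one, and for 6 of 10 with members kept among the variable features (Erbb2, Erbb4, Nrg2 and Igf1r moved to astrocyte-like cells) or with a 10% mitochondrial limit and cells placed one by one (Nrg1, Nrg2 and Nrg3 moved to tumor-like and Igf1 to border macrophage-like cells). Leaving out each library gave 7 to 10 of 10, since without C-ON classes small in that library could be ranked. Members lower in microglia-like cells numbered 2 to 4 with each library left out, 4 when cells were placed one by one under either mitochondrial limit (Egfr, Nrg2, Igf1 and Igf2), 4 with a floor of 3 UMIs and 0 with a floor of 50 CPM. With the floor of 3 UMIs, 1 member (Erbb2) was lower in tumor-like than in oligodendrocyte-like cells. Without FMC_new, Erbb4 joined the neuregulins as higher in tumor-like cells (3 to 4 members with each library left out). The share of tumor-like cells with Erbb3 and Erbb4 UMIs was 1.58% to 1.88% with each library left out, 1.85% at a resolution of 1.2, 1.95% under SCTransform, 2.002% with cells placed one by one, 1.92% without doublets, 1.88% with members kept, 3.29% with the 10% limit, 1.97% in the larger tumor-like cluster alone, 0.284% at 500 UMIs and 15.3% without thinning. Of 60 alternatives of counts 54 were within 1.5 times, and of 297 of levels and shares 216 moved by less than the libraries' SD. Leaving out a library moves a level by less than this SD by construction. Those alternatives are among the 216 and say nothing of stability. Subtracting the T cell-like level, chosen after seeing the data along with the larger cluster alone and the removal of 376 cells with shared barcodes, took Igf1r from 97.3 to 50.6 CPM in tumor-like and from 74.9 to 28.1 CPM in oligodendrocyte-like cells. Igf1 in microglia-like cells of C-ON rests on 3 UMIs, and Igf2 in border macrophage-like cells on 22 in C-ON and 16 in FMC_new. No paired analysis was possible because both libraries are of 1 group.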

Other observations

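Pituitary endocrine-like cells, found almost only in FMC_new, carried Nrg1. In that library Nrg1 was at 2237 CPM in the cluster led by Gm14618, Ghrhr, Pou1f1, Gal and Gm32647 (355 cells), 697 CPM in the one led by Cidea, Tbx19, Obsl1, Srxn1 and Avpr1b (599 cells), 339 CPM in the one led by Igkv4-70, Srxn1, Cidea, Obsl1 and Rasd1 (501 cells) and 362 CPM in the one led by Oacyl, Chga, Pcsk2, Hs6st3 and Esm1 (230 cells). The last of these also had 375 CPM of Nrg3, against 1.77 to 8.54 CPM in the other 3. Egfr was at 109 CPM in the Tbx19 cluster and 7.85 CPM in the Ghrhr cluster, and Igf1r was at 52.4 and 205 CPM.

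An unnamed cluster led by Mia, Folr1, Cyp2f2, Rbpms and Aldh1a2 (10 cells in C-ON and 286 in FMC_new) held the highest Erbb2 level of the 37 clusters (16.6 CPM with the libraries pooled, 16.5 CPM in FMC_new), together with 153 CPM of Egfr, 482 CPM of Erbb4 and 113 CPM of Igf1r. Areg, an EGFR ligand, was at 342 CPM in ILC2-like cells of C-ON (27 cells) and 1142 CPM in those of FMC_new (65 cells).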
